A study of Mus musculus with 2 samples.

Results

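T cells of the aneurysmal mouse aorta were examined in single-cell RNA profiles of Gsdme-KO and WT abdominal aorta. T cells were chosen by measured values. A member needed UMIs (unique molecular identifiers, each standing for 1 captured transcript) of at least 2 of the 6 genes Cd3d, Cd3e, Cd3g, Trac, Trbc2 and Trdc, with at least 1 of the 3 Cd3 genes among them. It also had to have no Cd79a, at most 2 UMIs of the complement C1q genes together and at most 2 of Col3a1, which limits B cells, macrophages and fibroblasts. The rule gave 188 T cells among 8784 kept cells of the Gsdme-KO library and 198 among 7619 of the WT library, 386 of 16403 in all. Both groups carried an abdominal aortic aneurysm model made by infusing PPE, an elastase from pancreas. Gsdme-KO mice lacked Gsdme throughout the body and WT mice were C57BL/6J. Ages, sexes, the strain background of the deletion and the number of mice per library are not given in the sources used here. There was 1 library per group, so no difference between the groups was tested, and the intervals given are 95% intervals that cover counting error only.

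T cells recognise antigens through a receptor whose alpha and beta chains, or gamma and delta chains, signal through the CD3 subunits and the kinases Lck and Zap70. CD4 marks helper and regulatory T cells, CD8 marks cytotoxic T cells, and Foxp3 is the transcription factor of regulatory T cells, which restrain other T cells. Gamma-delta T cells of tissues can make interleukin 17. In aneurysm walls T cells gather in the adventitia beside macrophages and B cells, and interferon gamma and interleukin 17 from them act on macrophages and smooth muscle cells. Gsdme encodes gasdermin E, which opens pores in the cell membrane once it has been cleaved.

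The 3 Cd3 genes, which anchored the choice of cells, lie side by side on mouse chromosome 9, and Cxcr6, a chemokine receptor of tissue T cells whose level differed between the libraries, lies on the same chromosome. Their promoter windows are shown because the first 3 mark the members and the last belongs to the gene with the most UMIs among those named as lower in Gsdme-KO T cells. Each window runs from 250 bases before to 50 bases after the RefSeq start on GRCm38.p6, read 5′ to 3′ on the gene's strand. The windows are chr9:44980382-44980681 for Cd3g (minus strand), chr9:44981536-44981835 for Cd3d (plus strand), chr9:45009562-45009861 for Cd3e (minus strand) and chr9:123806227-123806526 for Cxcr6 (plus strand). Capitals mark matches, on either strand, to 4 short strings of letters: the Runx motif TGTGGT, the Ets motif CCGGAA, the E-box motif CACCTG and the GATA motif AGATAA.
Cd3g: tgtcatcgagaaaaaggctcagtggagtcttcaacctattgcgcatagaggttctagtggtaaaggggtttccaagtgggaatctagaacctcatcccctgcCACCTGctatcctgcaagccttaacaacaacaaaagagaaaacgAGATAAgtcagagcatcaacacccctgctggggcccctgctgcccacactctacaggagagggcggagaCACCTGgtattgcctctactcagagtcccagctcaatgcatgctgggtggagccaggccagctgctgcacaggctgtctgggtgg
Cd3d: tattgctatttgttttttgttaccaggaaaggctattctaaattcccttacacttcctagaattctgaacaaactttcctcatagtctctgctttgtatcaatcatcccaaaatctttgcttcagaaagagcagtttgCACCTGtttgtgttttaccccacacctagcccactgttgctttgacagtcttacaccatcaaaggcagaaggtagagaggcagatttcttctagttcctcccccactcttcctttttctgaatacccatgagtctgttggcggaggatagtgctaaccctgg
Cd3e: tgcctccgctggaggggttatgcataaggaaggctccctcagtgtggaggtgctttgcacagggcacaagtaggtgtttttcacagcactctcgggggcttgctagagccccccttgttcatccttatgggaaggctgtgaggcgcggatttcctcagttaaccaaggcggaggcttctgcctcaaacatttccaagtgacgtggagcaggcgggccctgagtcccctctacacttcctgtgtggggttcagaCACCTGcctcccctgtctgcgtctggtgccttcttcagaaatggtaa
Cxcr6: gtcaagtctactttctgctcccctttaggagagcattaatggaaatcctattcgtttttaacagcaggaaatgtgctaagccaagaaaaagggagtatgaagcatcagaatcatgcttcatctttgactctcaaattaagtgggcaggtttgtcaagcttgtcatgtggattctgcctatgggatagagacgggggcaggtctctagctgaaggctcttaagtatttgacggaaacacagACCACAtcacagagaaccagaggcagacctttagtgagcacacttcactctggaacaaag
The Cd3g window held 2 E-box strings and 1 GATA string, without overlap, and the Cd3d and Cd3e windows held 1 E-box string each. The Cxcr6 window held 1 Runx string, on the other strand, as ACCACA. No Ets string was found in these 4 windows. Of 32851 RefSeq promoter windows of 300 bases, 16.8% held the Runx string, 14.9% the Ets string, 20.2% the E-box string and 11.2% the GATA string, so each match is common.

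Gsdme itself was nearly absent from T cells. It had 0 UMIs in 188 Gsdme-KO T cells, against 2 UMIs in 198 WT T cells, and 0 of 188 allows a share of Gsdme-KO T cells with a Gsdme UMI of up to 1.60% (3 counts of the total). This limits cells with a UMI, not cells that express the gene. Over all kept cells Gsdme had 133 UMIs in 99 Gsdme-KO cells (2.55 CPM, where CPM is a gene's UMIs scaled to a summed total of 1000000), against 215 UMIs in 185 WT cells (5.53 CPM). The gene was therefore not at 0 in the Gsdme-KO library. No source used here gives the deleted stretch of Gsdme, and the platform reads the end of transcripts, so this level does not check the genotype.

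The libraries were alike in T cell depth. T cells had a median of 2837.5 UMIs and 1478.5 genes in the Gsdme-KO library and 2811 UMIs and 1510.5 genes in the WT library, with median mitochondrial shares of 5.26% and 4.52% in that order. Summed over T cells there were 579496 UMIs in Gsdme-KO and 601451 in WT. The 2 libraries shared 65 kept cell barcodes, and no barcode was a T cell in both. Fibroblasts with at least 10 UMIs of Col3a1 made up 18.2% of Gsdme-KO cells and 10.1% of WT cells, which sets the denominators of all shares of kept cells.

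T cells were 2.14% of kept cells in the Gsdme-KO library (exact binomial interval 1.85 to 2.46) and 2.60% in the WT library (2.25 to 2.98). The ratio of these shares was 0.824 (interval 0.676 to 1.00). Among cells with at most 2 UMIs of Col3a1, which leaves out most fibroblasts, T cells were 3.06% in Gsdme-KO and 3.32% in WT, a ratio of 0.921 (0.757 to 1.12). B cells, gated on Cd79a, were 1.95% and NK cells, gated on Ncr1 or Klrb1c without Cd3 genes, 0.205% of Gsdme-KO cells, against 2.56% and 0.394% of WT cells.

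The cells held the T cell genes that the rule did not use. Icos, a co-stimulatory receptor of activated T cells (chr1:60977927-61000320, mm10), had 852 CPM in Gsdme-KO T cells and 1212 CPM in WT T cells, against 1.95 and 3.04 CPM in macrophages of those libraries. Lck, the kinase that starts receptor signalling, had 412 CPM in Gsdme-KO and 525 CPM in WT T cells, and 0.305 and 2.71 CPM in their macrophages. Bcl11b, a transcription factor of T cell commitment, had 399 CPM in Gsdme-KO and 497 CPM in WT, and Themis, an adaptor of T cell selection, 295 CPM in Gsdme-KO and 314 CPM in WT. The label of T cells fits these genes in both libraries, although the NK gate held some of them too.

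Cells of the NK gate shared part of this set. Lck had 228 CPM in the Gsdme-KO and 384 CPM in the WT NK gate, and Icos 133 and 115 CPM. Bcl11b and Themis each had 0 CPM in the Gsdme-KO and 25.6 CPM in the WT NK gate. In WT, T cells were not above the NK gate for Cd2, with 309 against 320 CPM, and Cd247, with 171 against 243 CPM. In Gsdme-KO T cells had 352 against 304 CPM of Cd2 and 152 against 38.0 CPM of Cd247. Trbc1, which is nearly identical to Trbc2 so that counts may be split between them, had 233 CPM in Gsdme-KO and 281 CPM in WT T cells, and 285 and 230 CPM in the NK gates of those libraries. Leaving out the genes of the rule, the 10 genes furthest above every other gate were Cd8a, Pdcd1, Cd6, Cd8b1, Bcl11b, Foxp3, Trat1, Cxcr6, Cd5 and Cd4. Cd8a (chr6:71373427-71379173) had 264 CPM in Gsdme-KO T cells and 412 CPM in WT T cells and at most 0.86 CPM elsewhere. Foxp3 (chrX:7573644-7595245) had 117 CPM in Gsdme-KO and 79.8 CPM in WT T cells and at most 0.329 CPM elsewhere. Cd4 was the least specific of the 10, with 185 CPM in Gsdme-KO and 248 CPM in WT T cells beside 11.7 and 18.7 CPM in macrophages.

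**Figure D1:**
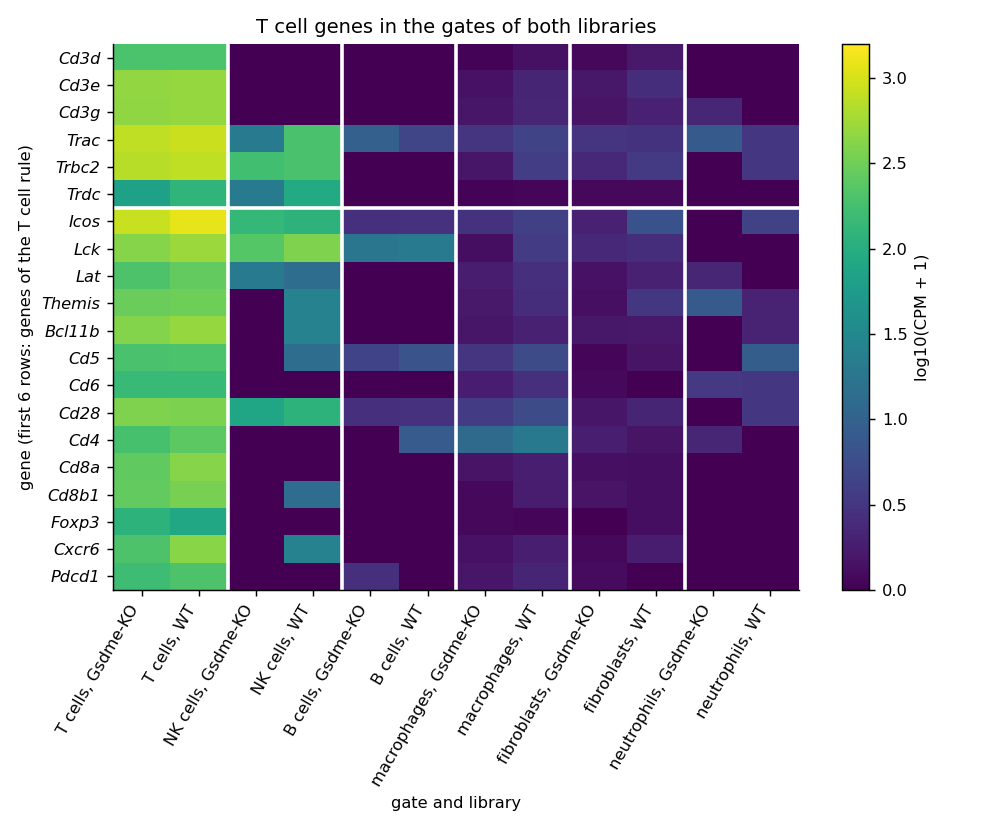
Level of T cell genes in T cells and 5 other gates, with the Gsdme-KO library left of the WT library in each pair, as log10(CPM + 1) in colour. The first 6 rows are the genes of the rule; Icos, Lck and the lower rows were not used by it and are high in T cells and, for Lck, also in NK cells.

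Cells just outside the rule differed by the limit they missed. Cells with 1 of the 6 genes, just outside, numbered 21 in Gsdme-KO and 16 in WT and had Lck at 32.7 and 110 CPM in that order, with the macrophage gene Lyz2 at 2335 and 2061 CPM. Members with 2 of the genes numbered 29 in Gsdme-KO and 23 in WT, with Lck at 311 and 524 CPM and Lyz2 at 595 and 280 CPM. The limits on C1q removed 14 Gsdme-KO and 23 WT cells and those on Col3a1 24 Gsdme-KO and 16 WT cells, out of 224 and 234 before the limits. Cells just outside those limits kept Icos, with less Lck than members at the limit. With 3 UMIs of C1q, 3 Gsdme-KO cells had Icos at 996 CPM and 6 WT cells at 1253 CPM, and members with 2 UMIs had 976 and 829 CPM in that order. Lck was at 111 CPM in these Gsdme-KO and 376 CPM in these WT cells, beside 444 and 603 CPM in those members. Lyz2 was at 553 CPM in Gsdme-KO and 3215 CPM in WT, beside 385 and 207 CPM in those members. With 3 UMIs of Col3a1, 7 Gsdme-KO cells had Icos at 487 CPM and 4 WT cells at 2950 CPM, beside 1228 and 758 CPM in members with 2 UMIs. Cells with at least 2 of the 6 genes but none of the Cd3 genes numbered 11 in Gsdme-KO, with Lck at 330 CPM, and 22 in WT, with Lck at 636 CPM.

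RNA of other cells was present in small amounts and not evenly. At least 1 UMI of the 10 macrophage markers was found in 59.0% of Gsdme-KO and 84.8% of WT T cells, although their summed level was 751 CPM in Gsdme-KO and 796 CPM in WT. The 7 fibroblast markers summed to 602 CPM in Gsdme-KO and 607 CPM in WT, and the 8 B cell markers to 164 CPM and 208 CPM, with Cd79a at 0 in both, as the rule requires. The 7 dendritic cell markers summed to 140 CPM in Gsdme-KO and 29.9 CPM in WT. Of these, Xcr1 was at 0 in both libraries and Flt3, Clec9a and Ccl22 at 0 in WT. All 31 Ccl22 UMIs came from 1 Gsdme-KO cell. The 7 neutrophil markers summed to 159 CPM in Gsdme-KO and 145 CPM in WT. The part that these cells' RNA has in the differences below was not tested, except where a value without such cells is given.

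CD4 and CD8 T cells were both present, and fewer Gsdme-KO T cells could be assigned. With any UMI of Cd4 and none of Cd8a and Cd8b1, the Cd4 gate held 52 Gsdme-KO T cells (27.7%, interval 21.4 to 34.6) and 64 WT T cells (32.3%, 25.9 to 39.3). The Cd8 gate, defined the other way, held 67 Gsdme-KO cells (35.6%, 28.8 to 42.9) and 86 WT cells (43.4%, 36.4 to 50.6). Cells with neither were 69 in Gsdme-KO (36.7%, 29.8 to 44.0) and 46 in WT (23.2%, 17.5 to 29.7), and the ratio of these shares was 1.58 (1.15 to 2.17). No Gsdme-KO cell and 2 WT cells had both. After thinning each cell to 1000 UMIs, which left out 3 Gsdme-KO and 4 WT cells, neither gene was seen in 62.7% of Gsdme-KO and 47.9% of WT T cells, a ratio of 1.31 (1.09 to 1.57).

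A cell with neither gene is not shown to lack both, because single UMIs are missed at this depth. The summed level of Cd8a and Cd8b1, the chains of the CD8 receptor, was 533 CPM in Gsdme-KO and 765 CPM in WT T cells, a ratio of 0.697 (0.602 to 0.807). Background was low for Cd8a, seen in 0.147% of Gsdme-KO and 0.390% of WT macrophages. Cd4 was seen in 5.39% of Gsdme-KO and 6.87% of WT macrophages, at median depths of 7240 and 6833 UMIs.

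Foxp3-bearing T cells numbered 17 in Gsdme-KO (9.04%, 5.36 to 14.1) and 14 in WT (7.07%, 3.92 to 11.6), a ratio of 1.28 with an interval from 0.649 to 2.52. Of these, 12 Gsdme-KO and 8 WT cells lay in the Cd4 gate and none in the Cd8 gate. Foxp3 was seen in 2 macrophages of each library, 0.0981% of Gsdme-KO and 0.0974% of WT macrophages. Trdc, the constant part of the delta chain and one of the genes of the rule, was found in 9 Gsdme-KO T cells (4.79%, 2.21 to 8.89) and 18 WT T cells (9.09%, 5.48 to 14.0). That ratio was 0.527 with an interval from 0.243 to 1.14, which includes no difference. Thinned to 1000 UMIs, Trdc was in 3.78% of Gsdme-KO and 7.73% of WT T cells.

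**Figure D2:**
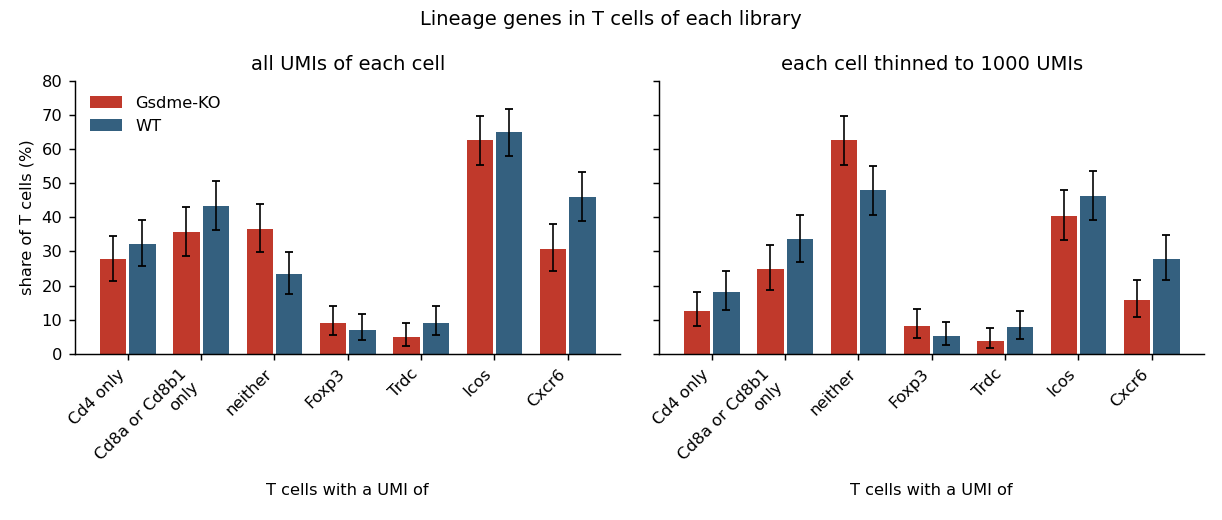
Share of T cells (percent) with a UMI of each gene, Gsdme-KO in red left of WT in blue, from all UMIs on the left and after thinning each cell to 1000 UMIs on the right; bars carry exact 95% binomial intervals. Cells with neither Cd4 nor Cd8 are more frequent in Gsdme-KO in both panels, and cells with Cxcr6 less frequent.

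Within the T cells the gates carried different gene groups in each library on its own. These gates use measured values of the same cells, so what follows is a description. When the Cd8 gate was set over the Cd4 gate, 6.3% of 6160 genes had a ratio of at least 1.5 in both libraries and 6.98% a ratio of at most 1/1.5, which is the fold used throughout. Of 16 measured genes of the cytotoxic list 12 were past it upward and none downward, and of 19 genes of the regulatory list none upward and 15 downward. Ccl5, a chemokine of effector T cells, had 3626 CPM in the Cd8 gate and 347 CPM in the Cd4 gate of Gsdme-KO, and 2800 and 412 CPM in WT. Eomes, a transcription factor of CD8 effector and memory cells, had 549 CPM in the Cd8 gate of Gsdme-KO and 314 CPM in that of WT, and 0 UMIs in both Cd4 gates. Gzmk, the gene of granzyme K, had 342 CPM in the Cd8 gate and 23.1 CPM in the Cd4 gate of Gsdme-KO, and 273 and 20.1 CPM in WT. The Cd4 gate was instead high in Cd40lg, the helper signal to B cells, with 173 CPM in Gsdme-KO and 166 CPM in WT and none in either Cd8 gate.

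Foxp3-bearing cells carried the regulatory programme. Over the other T cells 8.14% of 7137 genes were past the fold upward in both libraries and 6.56% downward, and 15 of 19 regulatory genes other than Foxp3 were past it upward and none downward. Il2ra, the high-affinity receptor chain for interleukin 2, had 2552 CPM in Foxp3-bearing and 93.6 CPM in other Gsdme-KO T cells, and 789 and 101 CPM in WT. Ikzf2, which encodes Helios, had 2195 and 115 CPM in Gsdme-KO and 1349 and 110 CPM in WT, in the same order. Il1rl1, the receptor for interleukin 33, which marks tissue regulatory T cells, had 1588 and 93.6 CPM in Gsdme-KO and 1629 and 19.6 CPM in WT. Of 19 cytotoxic genes 9 were past the fold downward, led by Ccl5 at 35.7 CPM in Foxp3-bearing and 2182 CPM in other Gsdme-KO T cells, and 50.9 and 1693 CPM in WT.

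Trdc-bearing cells carried genes of interleukin 17 producing gamma-delta T cells. Over the other T cells 6.95% of 7137 genes were past the fold upward in both libraries and 3.88% downward, beside 11 of 13 measured helper 17 genes upward and none downward. Cd163l1, a scavenger receptor found on such cells in mouse, had 581 CPM in Trdc-bearing and 3.62 CPM in other Gsdme-KO T cells, and 1371 and 31.1 CPM in WT. Il23r, the receptor for interleukin 23, had 290 and 9.06 CPM in Gsdme-KO and 451 and 21.98 CPM in WT, in the same order. Blk, a kinase needed for these cells in mouse, had 145 and 1.81 CPM in Gsdme-KO and 415 and 3.66 CPM in WT. Trgc1, a gamma chain constant gene whose near copies may share its counts, had 835 and 10.9 CPM in Gsdme-KO and 974 and 3.66 CPM in WT. The delta variable segment Trdv4 was in 3 of 9 Gsdme-KO and 6 of 18 WT Trdc-bearing cells. No other of the 6 delta variable segments was seen. Il17a had 0 UMIs in Gsdme-KO T cells and 17 UMIs in 4 WT T cells, of which 2 also had Trdc. Of the 17 UMIs 9 were in 1 WT cell of the Cd4 gate, and after thinning 1 WT cell had Il17a. Il17f went the other way, with 5 UMIs in 2 Gsdme-KO T cells, of which 1 also had Trdc, and 0 in WT.

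**Figure D3:**
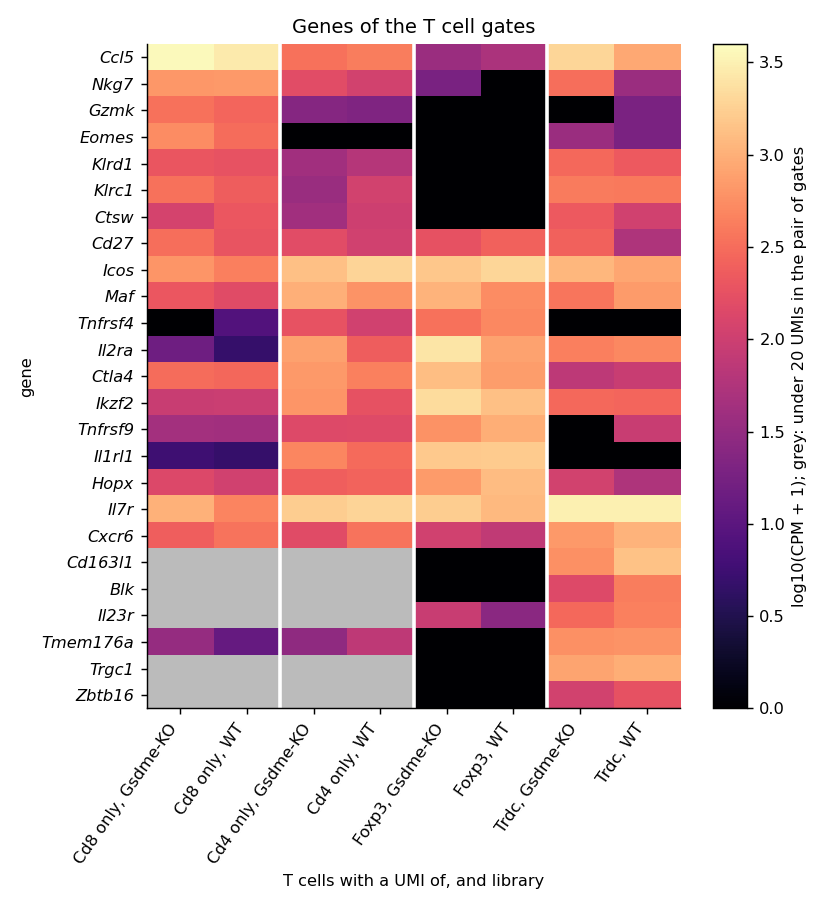
Level of 25 genes, as log10(CPM + 1) in colour, in T cells with Cd8a or Cd8b1 only, Cd4 only, Foxp3 or Trdc, with Gsdme-KO left of WT in each pair; grey means fewer than 20 UMIs in the compared gates. Ccl5 and Eomes are highest in the Cd8 gate, Il2ra and Ikzf2 in Foxp3-bearing cells and Cd163l1 and Trgc1 in Trdc-bearing cells of both libraries.

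The comparison the design implies is Gsdme-KO over WT within T cells. Of 7137 genes with at least 20 UMIs over both libraries, 9.85% had a ratio of at least 1.5 and 11.8% a ratio of at most 1/1.5, and the median log2 ratio was -0.04. A ratio above 1 was found for 3284 of these genes and below 1 for 3853. Genes were then named by size of the ratio and depth, 12 in each direction. The higher set included regulatory and co-stimulatory genes (Il2ra, Il1rl1, Tnfsf8) and Ly6c2. The lower set included Cxcr6, Cd163l1 and Ddx58, a sensor of viral RNA that interferon induces.

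Cxcr6, the receptor for CXCL16 on effector and resident T cells, was the lower gene with the most UMIs. It had 200 CPM (116 UMIs) in Gsdme-KO T cells and 422 CPM (254 UMIs) in WT T cells, a ratio of 0.474 (0.377 to 0.593). It was seen in 58 of 188 Gsdme-KO T cells (30.9%) and 91 of 198 WT T cells (46.0%), and after thinning in 15.7% and 27.8%. Macrophages, which should lack it, showed it in 0.294% of Gsdme-KO and 0.438% of WT cells. The level was lower in Gsdme-KO in the Cd4 gate, with 150 CPM against 357 CPM in WT, in the Cd8 gate, with 239 against 355 CPM, and in cells with neither, with 202 against 637 CPM. Foxp3-bearing cells had 107 CPM in Gsdme-KO and 76.4 CPM in WT, from 6 and 3 UMIs. Trdc-bearing cells had 689 CPM in Gsdme-KO and 1083 CPM in WT, a ratio of 0.637 (0.359 to 1.08). Of the cells with neither, 8 of 69 in Gsdme-KO and 15 of 46 in WT had Trdc. Their part in the level of that gate was not tested. Across the 14 alternative settings the ratio over all T cells lay between 0.402 and 0.599.

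Cd163l1 had 31.1 CPM (18 UMIs in 5 cells) in Gsdme-KO and 155 CPM (93 UMIs in 15 cells) in WT, a ratio of 0.201 (0.114 to 0.335). Of these, 4 Gsdme-KO and 9 WT cells also had Trdc. Within Trdc-bearing cells the level was 581 CPM in 9 Gsdme-KO cells and 1371 CPM in 18 WT cells, a ratio of 0.423 (0.230 to 0.733). The other T cells held 2 UMIs in 1 Gsdme-KO cell (3.62 CPM) and 17 UMIs in 6 WT cells (31.1 CPM). The richest single cell held 6 of the UMIs in Gsdme-KO and 16 in WT, and the intervals do not cover spread between cells. A cell without a Trdc UMI may still express Trdc. Whether the level per cell or the number of such cells differed was not tested.

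Il2ra had 331 CPM (192 UMIs) in Gsdme-KO and 146 CPM (88 UMIs) in WT, a ratio of 2.26 (1.75 to 2.95), although similar numbers of cells had it, 31 in Gsdme-KO and 28 in WT. In the Cd4 gate it had 763 CPM in Gsdme-KO and 236 CPM in WT, and in cells with neither gene 295 and 319 CPM. In Foxp3-bearing cells Il2ra had 2552 CPM in Gsdme-KO and 789 CPM in WT, a ratio of 3.23 (2.18 to 4.94), while Foxp3 itself had 1214 and 1222 CPM. With only cells free of C1q and Col3a1 UMIs, 94 in Gsdme-KO and 83 in WT, the ratio of Il2ra over all T cells was 1.30.

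Il1rl1 had 238 CPM (138 UMIs in 15 cells) in Gsdme-KO and 125 CPM (75 UMIs in 9 cells) in WT, a ratio of 1.91 (1.43 to 2.56). In Foxp3-bearing cells alone it had 1588 CPM in Gsdme-KO and 1629 CPM in WT, and with cells free of C1q and Col3a1 UMIs the ratio over all T cells was 1.04. Tnfsf8, the ligand of CD30, had 226 CPM in Gsdme-KO and 93.1 CPM in WT, a ratio of 2.43 (1.76 to 3.38). Of its 131 Gsdme-KO UMIs 60 came from 1 cell, and without the richest cell of each library the ratio was 1.71. That cell also held all 53 UMIs of Il5 and all 13 of Il13, the cytokines of helper 2 cells and innate lymphoid cells, with 22 of Il1rl1 and 6 of Gata3. It had 0 UMIs of Cd3e and 2 of Trac.

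Ly6c2, a surface protein of memory and effector CD8 T cells in mouse, had 673 CPM in 75 Gsdme-KO cells and 356 CPM in 63 WT cells, a ratio of 1.89 (1.60 to 2.25). Counted together with its near copy Ly6c1 the ratio was 1.83 (1.55 to 2.15). It was higher in Gsdme-KO in the Cd8 gate, with 943 CPM against 444 CPM in WT, and lower in the Cd4 gate, with 156 CPM against 251 CPM, where the ratio of 0.621 had an interval from 0.374 to 1.01. Fnip2, whose product binds folliculin in the mTORC1 pathway, had 121 CPM (70 UMIs) in Gsdme-KO and 19.95 CPM (12 UMIs) in WT, and 58 of the Gsdme-KO UMIs were in the Cd4 gate. Kbtbd11 had 147 CPM in 57 Gsdme-KO cells and 51.5 CPM in 26 WT cells, a ratio of 2.85 (1.87 to 4.44). Its ratio was above 1.5 in the Cd4 gate (3.76), the Cd8 gate (2.64) and the cells with neither (1.82).

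Tpm3, a tropomyosin gene, and Tpm3-rs7, its near-identical copy, went opposite ways and are uncertain, since their reads could be assigned to either. Tpm3 had 638 CPM in Gsdme-KO and 352 CPM in WT, and Tpm3-rs7 had 34.5 CPM in Gsdme-KO and 331 CPM in WT. Summed, they had 673 CPM in Gsdme-KO and 683 CPM in WT, a ratio of 0.985 (0.855 to 1.13). Other genes named as higher were Ndufb3 (ratio 2.54), Syngr2 (2.28), Marchf3 (2.24) and Lmna (2.04), a nuclear lamina gene with 183 CPM in Gsdme-KO and 89.8 CPM in WT. The others named as lower were Stard3nl (ratio 0.247), Usp53 (0.264), Arhgap12 (0.272), Pde7b (0.283), Sel1l (0.340), Kansl1l (0.341), Lgals3bp (0.396), Ddx58 (0.431) and Creb1 (0.471). Most of these rest on fewer than 100 UMIs over both libraries.

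**Figure D4:**
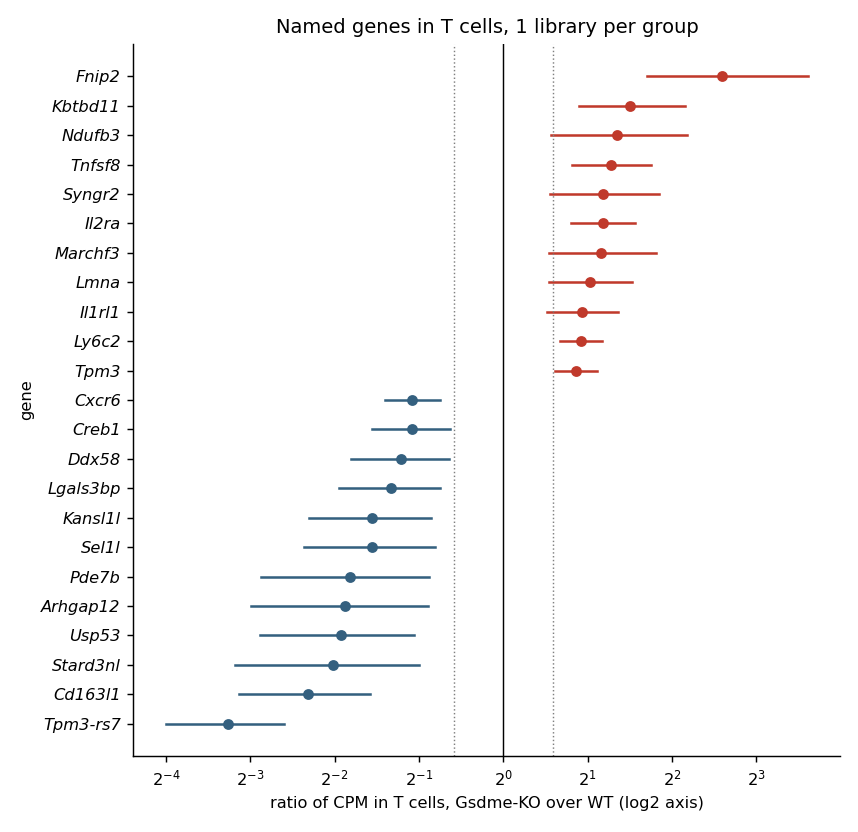
Ratio of CPM in T cells, Gsdme-KO over WT (log2 axis), of 11 of the 12 genes named as higher in red and the 12 named as lower in blue, with exact 95% counting intervals; dotted lines stand at 1.5 and 1/1.5. The genes were chosen for the end of the interval nearest 1, so intervals beyond 1 follow from the choice; Cxcr6 at 0.474 and Ly6c2 at 1.89 have the narrowest intervals beside Tpm3.

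Receptor signalling genes were close to even. The median log2 ratio of the 24 genes of the T cell receptor list was -0.05. Of these, 1 was past the fold upward and 1 downward, beside 9.85% and 11.8% of all genes. The gene past it upward was Cd27, a co-stimulatory receptor of less differentiated T cells, with 221 CPM in Gsdme-KO and 143 CPM in WT. Downward it was Zap70, with 75.9 CPM in Gsdme-KO and 143 CPM in WT. Icos, of the co-stimulation list, had a ratio of 0.703 (0.626 to 0.789) and so stayed inside the fold. Its ratio was 0.699 in the Cd4 gate, where it had 1342 CPM in Gsdme-KO and 1920 CPM in WT, and 1.48 in the Cd8 gate, with 633 CPM in Gsdme-KO and 429 CPM in WT. In cells with neither Cd4 nor Cd8 it was past the fold, with 657 CPM in Gsdme-KO and 1553 CPM in WT, a ratio of 0.423 (0.336 to 0.532).

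The regulatory list leaned upward in Gsdme-KO. Of its 20 measured genes 15 had a ratio above 1. Past the fold were 5 upward (Il2ra, Ikzf2, Lrrc32, Il1rl1 and Areg) and 1 downward (Tigit), beside 9.85% and 11.8% of all genes. The median log2 ratio was 0.34. That median was 0.18 in the 94 Gsdme-KO and 83 WT cells free of C1q and Col3a1 UMIs. There 3 of 17 genes were past the fold upward, beside 13.2% of all 4501 genes measured. Without the limits on Cd79a, C1q and Col3a1 the median was 0.16. Ikzf2 had 316 CPM in Gsdme-KO and 191 CPM in WT. Areg, the gene of amphiregulin, a growth factor of tissue repair, had 55.2 CPM in 20 Gsdme-KO cells and 11.6 CPM in 5 WT cells, a ratio of 4.74 (2.06 to 12.7). Its level was 31.3% of that in macrophages. In Foxp3-bearing cells Areg had 7 UMIs in Gsdme-KO and 0 in WT, and the ratio of Il1rl1 there was 0.975. The 2 Gsdme-KO cells with Csf2 had 0 UMIs of Cd3e. They held 22 and 10 UMIs of Il1rl1 and 1 and 4 of Areg. Tigit, an inhibitory receptor, had 25.9 CPM in Gsdme-KO and 48.2 CPM in WT.

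The cytotoxic list also leaned upward. Of its 19 measured genes 16 had a ratio above 1. Past the fold were 5 upward and none downward, beside 9.85% and 11.8% of all genes. The median was 0.27. In cells free of C1q and Col3a1 UMIs it was 0.08, and after thinning 0.15. In the former 3 of 14 genes were past the fold upward and 1 downward, beside 13.2% and 16.4% of all genes. Klrk1, the activating receptor NKG2D, had 183 CPM in Gsdme-KO and 91.4 CPM in WT, and within the Cd8 gate 277 CPM in Gsdme-KO and 78.4 CPM in WT, a ratio of 3.53 (2.11 to 6.12). Eomes had 230 CPM in Gsdme-KO and 141 CPM in WT, with 549 and 314 CPM in the Cd8 gate, a ratio there of 1.75 (1.31 to 2.34). The other 3 were Klre1, Crtam and Xcl1, each with at most 33 UMIs per library. Granzymes and perforin, the killing proteins of the list, were within the fold over all T cells. Gzmb had 183 CPM in Gsdme-KO and 176 CPM in WT, Gzmk 155 and 128 CPM, and Prf1 32.8 and 29.9 CPM. In the Cd8 gate the ratio was 0.865 (0.619 to 1.20) for Gzmb and 1.26 (0.896 to 1.76) for Gzmk. In the Cd4 gate Gzmb had 28 UMIs in 3 Gsdme-KO cells and 3 UMIs in 1 WT cell. Cells with neither Cd4 nor Cd8 had 13 UMIs of Gzmk in 8 Gsdme-KO cells and 0 in WT. The list leaned the same way in the NK gate, with 12 of 16 measured genes above 1, 4 below and a median of 0.26. In macrophages 9 genes were measured, with a median of 0.11, and in fibroblasts 5, with a median of -0.71. NK cells express most of this list, and the 10 NK markers, which include Klre1 and Eomes, summed to 540 CPM in Gsdme-KO and 354 CPM in WT T cells. At least 3 of them were found in 8 Gsdme-KO and 7 WT cells, and Klra4 and Klra8 were at 0 in both libraries. Their part in the result was not tested.

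The helper 17 list leaned downward. Of 13 measured genes 12 had a ratio below 1. The fold was passed by 7 downward and none upward, beside 11.8% and 9.85% of all genes. The median was -0.62. It was -1.18 in cells free of C1q and Col3a1 UMIs, with 5 of 8 genes past the fold downward, beside 16.4% of all genes. Il23r had 22.4 CPM in Gsdme-KO and 61.5 CPM in WT, Blk 8.63 and 41.6 CPM, and Tmem176a 56.9 and 110 CPM. These are the genes that Trdc-bearing cells carried, and those cells were 9 in Gsdme-KO and 18 in WT. Without them 7 genes were measured, 2 past the fold downward beside 12.2% of all genes, with a median of -0.43. The medians therefore cover different genes. The part of these cells in the lower level of the list was not tested. Of 12 helper 1 genes 10 had a ratio below 1, with a median of -0.33. Cxcr6 and Ifng, 2 of the 12, were past the fold downward, beside 11.8% of all genes. Ifng, the gene of interferon gamma, had 13.8 CPM (8 UMIs) in Gsdme-KO and 41.6 CPM (25 UMIs) in WT, at 7 and 8 cells. Of 6 helper 2 genes 5 had a ratio above 1 and 2 were past the fold upward, beside 9.85% of all genes. These were Il1rl1 and Il5, the Il5 UMIs all from 1 cell.

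Among inhibitory receptors 9 of 11 measured genes had a ratio below 1 and 3 were past the fold downward, beside 11.8% of all genes. After thinning 1 of 8 was past it downward, beside 13.0% of all genes. Tox, a factor of chronically stimulated T cells, had 160 CPM in Gsdme-KO and 251 CPM in WT, a ratio of 0.639 (0.488 to 0.833). Cd96 had 60.4 CPM in Gsdme-KO and 110 CPM in WT. Pdcd1, the gene of PD-1, had 160 CPM in Gsdme-KO and 203 CPM in WT, a ratio of 0.791 (0.597 to 1.04). Of 16 naive and memory genes 1 was past the fold upward and none downward, beside 9.85% and 11.8% of all genes. It was Klf2, a factor that keeps T cells in circulation, with 278 CPM in Gsdme-KO and 183 CPM in WT. Its target S1pr1, with 569 CPM in each, was within it. Of 13 residency genes 2 were past the fold downward, Cxcr6 and Prdm1, beside 11.8% of all genes.

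Secreted factors went both ways, with 5 of 17 genes past the fold upward and 4 downward, beside 9.85% and 11.8% of all genes. After thinning 9 were measured, none past the fold upward and 3 downward, beside 10.1% and 13.0% of all genes. Ccl4, a chemokine of activated T cells and macrophages, had 70.8 CPM in Gsdme-KO and 246 CPM in WT, a ratio of 0.288 (0.198 to 0.409). It was lower in the Cd4 gate, with 34.7 CPM in Gsdme-KO against 226 CPM in WT, and in the Cd8 gate, with 122 against 243 CPM. Ccl3 had 62.1 CPM in Gsdme-KO and 163 CPM in WT, of which 1 WT cell held 36 of 98 UMIs. Neutrophils hold far more of both, and the T cell levels were 13.7% of theirs for Ccl4 and 5.11% for Ccl3. Csf2 had 30 UMIs in 2 Gsdme-KO cells and none in WT. Of these, 10 were in the cell that held all Il5 UMIs and 20 in a cell with 0 UMIs of Cd3e and Trac, 10 of Il1rl1 and 4 of Gata3.

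Over all T cells, interferon-induced genes were mostly lower in Gsdme-KO. Of 26 measured genes of the type I interferon list 24 had a ratio below 1. The fold was passed by 9 downward and 1 upward (Bst2), beside 11.8% and 9.85% of all genes. The median log2 ratio was -0.33. In the cells free of C1q and Col3a1 UMIs the median was -0.05, with 3 of 19 genes past the fold downward. That was the level of all 4501 genes measured there, with a median of -0.05 and 16.4% past the fold downward. After thinning the list median was -0.21, with 3 of 12 past the fold downward, beside -0.04 and 13.0% over all genes. Macrophage marker UMIs were found in 59.0% of Gsdme-KO and 84.8% of WT T cells, at summed levels of 751 and 796 CPM. Their part in the interferon genes was not tested. Ddx58 had 63.8 CPM in Gsdme-KO and 148 CPM in WT, a ratio of 0.431 (0.286 to 0.640). Slfn8 had 44.9 CPM in Gsdme-KO and 93.1 CPM in WT, and Ifi213 had 112 and 188 CPM. Of 15 GTPases that interferon gamma induces 12 had a ratio below 1 and 3 were past the fold downward, beside 11.8% of all genes. Igtp led them, with 104 CPM in Gsdme-KO and 185 CPM in WT. The median was -0.41, and -0.12 in cells free of C1q and Col3a1 UMIs, -0.24 without the 5% of T cells with the most UMIs and -0.27 after thinning.

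The antigen presentation genes that interferon raises were mixed. Of 15 genes of MHC class I and its peptide loading 10 had a ratio below 1. Past the fold downward were 4, beside 11.8% of all genes. B2m, the light chain, had 3872 CPM in Gsdme-KO and 3023 CPM in WT, a ratio of 1.28 (1.20 to 1.36), and H2-K1 had 4756 and 4993 CPM. The type I interferon list was also lower in other gates. Its median was -0.86 in B cells, -0.61 in neutrophils, -0.31 in fibroblasts and -0.15 in macrophages, beside medians over all measured genes between -0.12 and -0.04 in those gates. In the NK gate 4 of its genes were measured, 2 above 1 and 2 below, with a median of 0.06. The GTPases that interferon gamma induces were lower in the other gates too. Their medians were -0.88 in fibroblasts, -0.57 in neutrophils, -0.38 in B cells and -0.17 in macrophages, and -0.89 from 2 genes in the NK gate. Whether T cells differ from these cells was not tested.

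**Figure D5:**
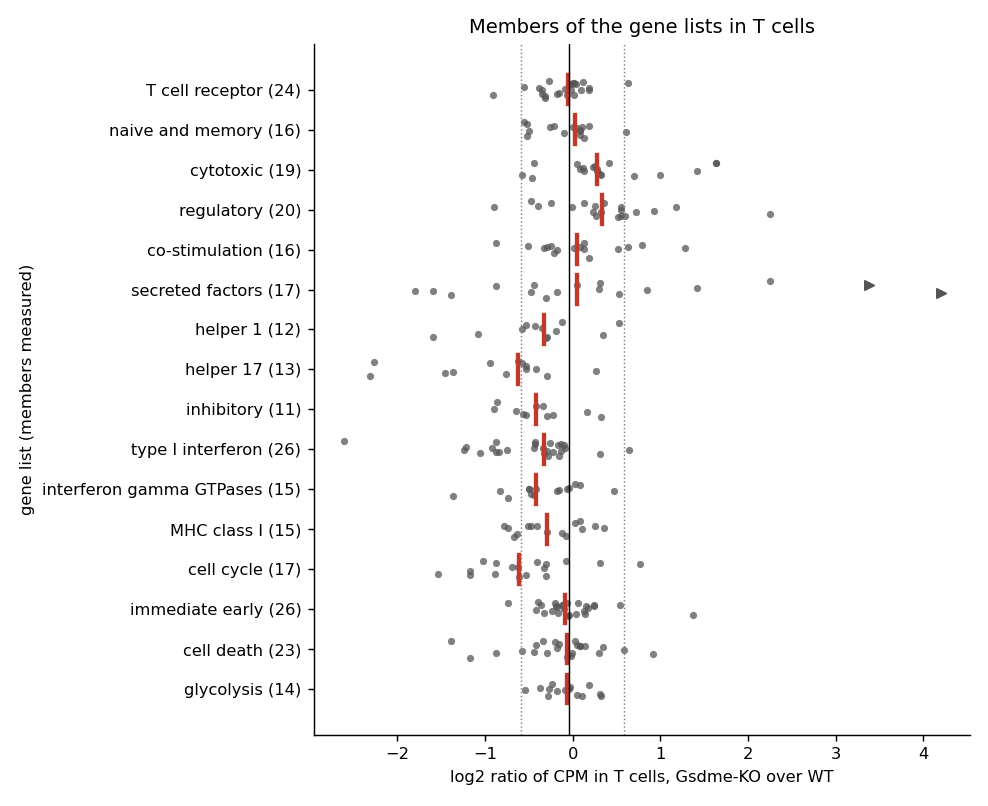
Log2 ratio of CPM in T cells, Gsdme-KO over WT, of each measured gene of 16 lists (1 point per gene, triangles for lower bounds where WT had 0 UMIs), with the list median in red, the median of all measured genes as a solid line at -0.04 and the fold of 1.5 dotted. The regulatory and cytotoxic lists lie mostly right of the line, and the helper 17, cell cycle, inhibitory and interferon lists mostly left of it.

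Cell cycle genes were few in T cells. At least 2 of 10 cycling genes were found in 7 of 188 Gsdme-KO T cells (3.72%, 1.51 to 7.52) and 9 of 198 WT T cells (4.55%, 2.10 to 8.45), and after thinning in 3 and 4 cells. Of 17 measured cell cycle genes 9 were past the fold downward and 1 upward, beside 11.8% and 9.85% of all genes. The median was -0.62. The direction turned in cells free of C1q and Col3a1 UMIs, with a median of 0.05 and 2 of 11 genes past the fold each way. Of all genes measured there 13.2% were past the fold upward and 16.4% downward. Without the 5% of T cells with the most UMIs the median was -0.24, with 4 of 12 genes past the fold downward, and after thinning -0.39, with 2 of 9. Without T cells that held markers of other cells it was -1.19, with 11 of 14 past the fold downward. Over all genes 12.5%, 13.0% and 13.5% were past the fold downward in these settings, in that order. Mki67 had 116 CPM in Gsdme-KO and 145 CPM in WT, of which 1 cell in each library held 37 and 36 UMIs.

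Cell death genes were close to even, with a median of -0.06. Of 23 genes 2 were past the fold upward and 3 downward, beside 9.85% and 11.8% of all genes. Gsdmd, a pore-forming gene related to Gsdme, had 34.5 CPM in Gsdme-KO and 33.3 CPM in WT. Casp1, the inflammasome caspase, had 29.3 CPM (17 UMIs) in Gsdme-KO and 76.5 CPM (46 UMIs) in WT, a ratio of 0.384 (0.206 to 0.682). Its level was 70.8% of that in macrophages. Of 14 glycolysis genes none was past the fold, and of 26 immediate early genes 1 was past it in each direction. Both lists stand beside the same 9.85% upward and 11.8% downward of all genes.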

How the data were processed

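Per the labels' protocols, digested aorta was captured as single cells with BD Rhapsody. The deposited matrices hold raw counts of UMIs (whole numbers) for each gene in each barcode; that they are UMIs follows from the platform and is not stated in the sources used here. CASAVA 1.8, STARsolo and the mm10 build appear in the submitters' processing notes. Every deposited barcode had at least 500 UMIs.

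Cells were kept with at least 500 UMIs, 250 genes and at most 25% mitochondrial UMIs. No doublet caller was used. Counts were summed over T cells per library and given as CPM, counts scaled to a summed total of 1000000. Ratios are Gsdme-KO over WT with exact conditional binomial intervals, shares have exact Clopper-Pearson intervals, and ratios of shares have log-scale intervals. Genes with at least 20 UMIs over both libraries were measured. A gene at 0 in 1 library was set at 3 counts in that library's sum, giving a bound. For shares compared across depths, each cell was thinned to 1000 UMIs.

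Named genes had at least 50 UMIs, a UMI in at least 5% of T cells of the higher library, at least 20% of the level of the highest other gate and a ratio past the fold of 1.5. The end of the interval closest to 1 set their order, with 12 taken each way. Xist, Tsix, genes of the Y chromosome, receptor segments, haemoglobins, mitochondrial and ribosomal genes and unnamed gene models were left out. Other genes of the X chromosome were kept. The 10 genes furthest above other gates, the 6 genes of the rule left out, were ranked by the lower ratio of the libraries after adding 5 CPM, with at least 100 UMIs. Members of the T cell lists could also be named. 1 of the genes named as higher is not reported here. Genes named outside these rules, from the interferon, MHC, secreted, cell cycle and cell death lists, were chosen after their values were seen.

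The members, the 34 lists and the rules were chosen with earlier results of these data known, so no list is independent support. Of 467 list genes 465 matched a feature, 4 through an older symbol. Coordinates come from GENCODE M21 (mm10) and promoters from RefSeq (GRCm38.p6). Leaving out each gene's richest cell, cells with Trdc and cells with dendritic markers were alternatives chosen after seeing the data. The interval code was tested on simulated data. Tools were Python 3.11.15, numpy 2.4.6, scipy 1.17.1, pandas 2.3.3, matplotlib 3.10.9, R 4.3.3 and edgeR 4.0.16, the last for TMM factors only.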

Additional observations from a re-analysis of the deposited data

How the results depend on the processing

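The Gsdme-KO over WT ratios of the share of T cells and of the Cd4, Cd8, neither, Trdc, Foxp3 and Cxcr6 shares stayed within their counting intervals under each alternative run. The shares themselves moved with the depth and the limits, as the number of T cells did. With 0 UMIs of C1q and Col3a1 the intervals of the ratios for cells with neither Cd4 nor Cd8 (1.497, 0.981 to 2.28) and with Cxcr6 (0.687, 0.462 to 1.02) included 1. The counts of genes past the fold, 703 higher and 843 lower in Gsdme-KO, were 395 and 508 after thinning each cell to 1000 UMIs. They were 1609 and 1804 with no filter on low counts, 212 and 338 with at least 50 UMIs, and 224 and 261 at a 2-fold limit. With TMM factors they were 787 and 750. The other alternatives kept both counts within 1.5 times.

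None of the 24 named genes turned direction under the alternatives run, and 7 came inside the fold under 1 alternative each. With 0 UMIs of C1q and Col3a1, which left 94 Gsdme-KO and 83 WT cells, Il2ra was at 1.30, Il1rl1 at 1.04, Usp53 at 0.819 and Ddx58 at 0.782. Without the limits on Cd79a, C1q and Col3a1, Marchf3 was at 1.49 and Lgals3bp at 0.687, and after thinning Sel1l was at 0.874; the cause was not tested. Over 14 alternatives the list median lay between 0.16 and 0.45 for regulatory, 0.08 and 0.32 for cytotoxic, -1.18 and -0.43 for helper 17, -0.50 and -0.05 for type I interferon, and -1.19 and 0.05 for cell cycle genes.

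No paired analysis was possible because there was 1 library per group, and the labels number no replicates. Animal-to-animal spread cannot be told apart from the genotype. Rare genes are limited by depth, since 1 UMI is worth 1.73 CPM in Gsdme-KO and 1.66 CPM in WT T cells.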

Other observations

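T cell receptor variable segments were captured in few T cells. Beta variable segments were found in 15 Gsdme-KO and 18 WT T cells. Gamma variable segments were found in 22 Gsdme-KO and 12 WT T cells, and Trgv2 led them, with 18 Gsdme-KO and 9 WT cells. Gamma constant genes were found in 30 Gsdme-KO T cells (15.96%, 11.03 to 21.99) and 20 WT T cells (10.1%, 6.28 to 15.2), beside 9 Gsdme-KO and 18 WT Trdc-bearing cells. After thinning to 1000 UMIs gamma constant genes were in 8.65% of Gsdme-KO and 8.76% of WT T cells, a ratio of 0.987 (0.514 to 1.89). Gamma transcripts alone do not mark a gamma-delta T cell, since alpha-beta T cells can also transcribe them.

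Il7r, the receptor for interleukin 7, which keeps resting T cells alive, had 1475 CPM in Gsdme-KO and 1428 CPM in WT T cells, a ratio of 1.03 (0.939 to 1.14). Within the gates it differed in direction. It had 1032 CPM in Gsdme-KO and 482 CPM in WT cells of the Cd8 gate, a ratio of 2.14 (1.72 to 2.68), and 1779 CPM in Gsdme-KO and 2612 CPM in WT cells with neither Cd4 nor Cd8, a ratio of 0.681 (0.584 to 0.795). Trdc-bearing cells had 3121 CPM in each library. These genes were picked after their values were seen, and the difference between gates was not tested.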
